A study of Rattus norvegicus with 22 samples.

Results

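Transcripts of NF-kB and Toll-like receptor (TLR) signalling genes were measured by RNA-seq in the nucleus accumbens (NAc), a forebrain area tied to the rewarding effect of ethanol (EtOH). The genes were 10 named members of the pathway, Tlr4, Myd88, Traf6, Traf2, Ikbkb, Nfkbia, Nfkb1, Nfkb2, Rela and Relb, looked up by exact symbol among the 17310 genes listed. Of these, 9 were found, and Relb was not analysed here. Rela and Traf2 had been picked because they were lower after EtOH gavage in experiment 2, so the values of that contrast are given as a description, without a test.

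The data came from 22 male adult Wistar rats, an outbred strain, in 2 experiments. In experiment 1, a bottle of EtOH (6 v/v %) stood beside the water bottle of 5 rats for 8 weeks, and 5 rats had water only. In experiment 2, all 12 rats drank 6% EtOH or water by choice for 4 weeks before and 2 weeks after a gavage period of 3 weeks. During that period 6 rats received EtOH gavage, at 2.5 g/kg per gavage from a 30 v/v % stock and with 2 gavages per day, while the 6 controls received water gavage. Experiment 2 had no group without EtOH, so its comparison concerns the forced dose added to drinking. Each sample held NAc core and shell of both hemispheres, and rats were killed within minutes of bottle removal, so neither model covers other brain regions or withdrawal.

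TLRs, such as TLR4 at the cell surface, recognise microbial products and molecules released by injured cells, and pass the signal through the adaptor MYD88 to the ubiquitin ligase TRAF6. TRAF2 carries the corresponding signal from TNF receptors, and both routes lead to the IKK complex, in which IKBKB phosphorylates the inhibitor encoded by Nfkbia so that the NF-kB dimers it holds can enter the nucleus. Rela, Nfkb1 and Nfkb2 encode subunits of those dimers, which switch on cytokine, adhesion and survival genes, and in brain the pathway is best known from the inflammatory responses of microglia and astrocytes.

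Several genes of the pathway are themselves textbook targets of NF-kB, and the sequences below are shown because they hold the kB consensus in the promoters of 3 members. The consensus was searched by name on both strands of 300-base RefSeq promoters of build GRCr8, and a promoter with several or overlapping matches was counted once. A match was found for 3 of the 7 members with a promoter entry (42.9%), against 2515 of 33469 promoters (7.51%). Nfkb2, Nfkb1 and Nfkbia had 1 match each, and these letters were not found in the windows of Rela, Traf2, Tlr4 or Myd88. Each line gives 30 bases on the strand of the gene, 5′ to 3′, with the consensus match in capitals.
Nfkb2, chr1:255108344-255108373, plus strand, match beginning 20 bases before the transcription start: tggtattttcGGGACTTTCCtaagagcact
Nfkb1, chr2:226805440-226805469, minus strand, match beginning 3 bases after the transcription start: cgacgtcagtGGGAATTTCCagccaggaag
Nfkbia, chr6:78597084-78597113, minus strand, match on the opposite strand, 31 bases before the transcription start: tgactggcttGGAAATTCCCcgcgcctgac

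Depth ranged from 2962291 to 5247386 gene-assigned reads per rat in experiment 1 and from 6713617 to 8765472 in experiment 2. All 9 markers of medium spiny neurons, the principal neurons of the NAc, were present in both experiments. Their presence does not show that the samples held NAc alone. Markers of cortical excitatory neurons summed to 90.3 to 678 CPM (the count scaled to library size) in experiment 1 and 1.24 to 517 CPM in experiment 2. Whether tissue beside the NAc was included was not tested. Of the reads counted on a gene or in no gene, 48.4 to 51.1% lay outside genes in experiment 1, 46.1 to 54.5% after water gavage and 49.8 to 58.0% after EtOH gavage. The estimated variation between samples beyond counting error, as a coefficient of variation, was 11.1% in experiment 1 and 31.3% in experiment 2. It takes in differences of library and dissection as well as of the rats. By edgeR's quasi-likelihood test, 0 of 8655 genes had a false discovery rate (FDR) under 0.05 in either experiment, and 483 (5.58%) and 115 (1.33%) had an unadjusted P-value under 0.05. In whole tissue, fewer cells of a type and less RNA per cell cannot be told apart.

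Counts below are normalized counts, meaning reads per gene scaled to the mean library of the experiment, and they do not correct for gene length, so they are compared between rats and not between genes. Fold changes are log2 values, EtOH minus control, with the standard error (SE). Genes were tested where their mean count exceeded the median over all listed genes. In experiment 1 this kept 5 of the 9 members (Traf2, Ikbkb, Nfkbia, Nfkb1 and Rela), and in experiment 2 it kept 6, with Traf6 added. The other members are given from a fit over all genes with at least 1 read.

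After 8 weeks of EtOH drinking in experiment 1, Rela was the only member whose groups did not overlap, with a mean 1.14 times that of the water group, and none of the 5 tested members had a P-value under 0.05, where 5.58% of all tested genes did. Non-overlapping groups were seen for 0.843% of tested genes, and for 0.439% with EtOH higher. Of the 9 members, 5 had fold changes above 0 and 4 below 0, against 50.5% below 0 among all tested genes. No direction was shared along the pathway.

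**Figure D1:**
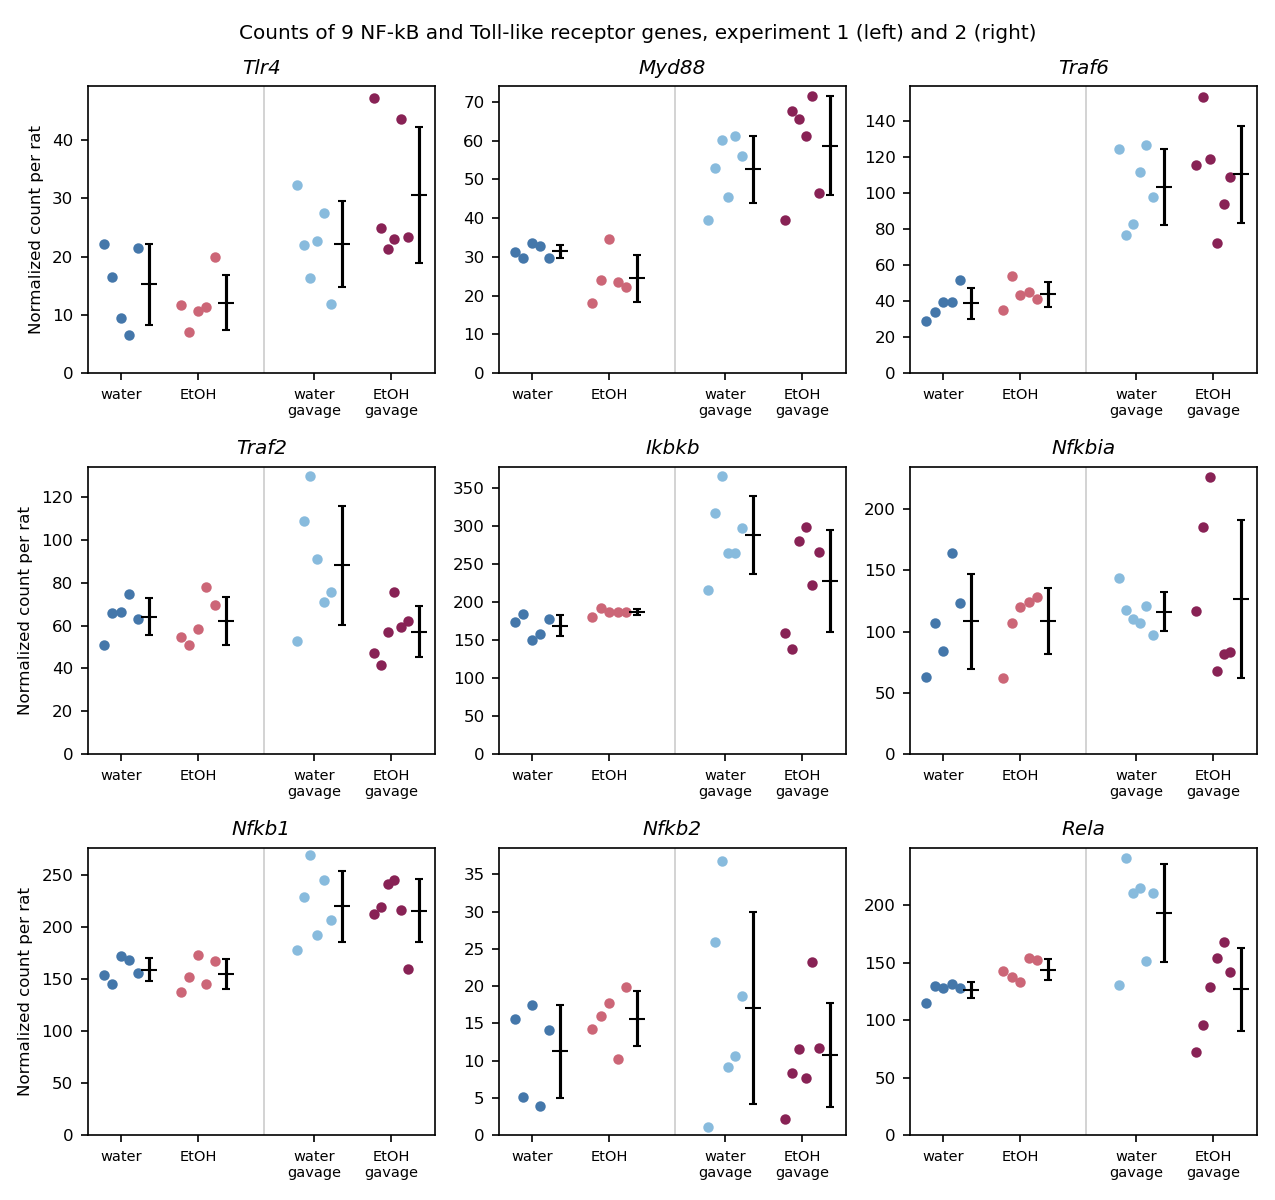
Normalized count (y axis, reads, each panel with its own scale from 0) of each of the 9 members, 1 point per rat, with mean and SD as bars. In each panel the 2 groups of experiment 1 (5 rats each) are left of the grey line and the 2 groups of experiment 2 (6 rats each) are right of it, and only Rela in experiment 1 shows groups that do not overlap.

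Rela encodes p65, the subunit that carries the main transactivation domain of NF-kB. In the water group its normalized counts were 114.6, 129.5, 128.4, 131.2 and 128.0, and in the EtOH group they were 143.0, 138.0, 132.9, 153.9 and 152.7. Every EtOH rat lay above every water rat, though the highest water rat and the lowest EtOH rat were close to each other. The means were 126 ± 6.66 and 144 ± 9.14 (SD, n = 5 each), a log2 fold change of 0.19 ± 0.090 (SE), with a 95% interval of -0.0062 to 0.38. This did not pass edgeR's test over all genes (FDR = 0.866). The exact permutation test gave the smallest P it allows with 5 against 5 rats (two-sided, P = 0.00794, unadjusted, 1 of 9 such tests). Groups that do not overlap always give this P, so it only restates that the Rela groups did not overlap. By the same test, P was 0.0159 for Ikbkb, 0.0476 for Myd88 and from 0.222 (Nfkb2) to 0.921 (Nfkbia) for the other members. These P-values were not adjusted, and the test was not run over all genes. Without EtOH replicate 3 the fold change of Rela was 0.22 and its unadjusted edgeR P-value was under 0.05, though the FDR was 0.989. The variation within each group, 5.27 and 6.34%, was below the 8.61% that counting error alone gives at a mean of 134.9 reads. Endothelial markers, of which 4 of 5 were found and none was at 0, summed to 205 to 244 CPM, the count scaled to library size, in the water group. In the EtOH group they summed to 243 to 270 CPM. Of the 9 medium spiny neuron markers, 8 had fold changes below 0, and their sums were 2981 to 5293 CPM (water) and 2668 to 5298 CPM (EtOH). Cortical excitatory neuron markers summed to 90.3 to 678 CPM (water) and 236 to 640 CPM (EtOH). The part of these markers in the Rela difference was not tested.

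The partners of Rela showed no such separation. Nfkb1, which encodes the p105 precursor of the p50 subunit and holds a kB match at its start, had 144.9 to 172.1 normalized counts in water rats and 137.8 to 172.8 in EtOH rats, and the ranges nearly coincided (log2 fold change -0.033 ± 0.094, edgeR FDR = 0.991). Nfkb2, the precursor of p52 in the non-canonical route, was near the limit of detection, with 3 to 24 reads per rat. Its normalized counts were 15.6, 5.1, 17.5, 3.9 and 14.1 in water rats and 14.3, 16.0, 17.7, 10.3 and 19.9 in EtOH rats. Water replicates 2 and 4 were the lowest, and the other 3 water rats overlapped with the EtOH group (0.42 ± 0.37, edgeR FDR = 0.868).

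The inhibitor and its kinase differed in how far rats of a group varied. Ikbkb, the catalytic IKK subunit of the canonical route, had 173.3, 183.9, 150.3, 157.5 and 176.9 normalized counts in water rats and 179.4, 192.1, 187.0, 186.8 and 187.1 in EtOH rats. All EtOH rats lay above the water median. The coefficient of variation was 2.42% in the EtOH group and 8.32% in the water group. Counting error alone gives 7.52% at the mean of 176.9 reads, so the small spread of the EtOH group is not read as a result. The log2 fold change was 0.15 ± 0.083 and did not pass edgeR's test (FDR = 0.888). The exact permutation test of Ikbkb, 1 of the 9 given with Rela, had an unadjusted P of 0.0159. The RefSeq model of Ikbkb overlaps that of Plat by 70 bases. Nfkbia, which encodes the inhibitor IkB-alpha and is induced by NF-kB as negative feedback, varied far more between rats, from 62.5 to 164.1 normalized counts in the water group and from 62.4 to 128.4 in the EtOH group. Replicate 1 was the lowest rat of both groups, and the means were alike at 108 ± 38.8 and 108 ± 26.9 (0.018 ± 0.22, edgeR FDR = 0.996).

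Among the adaptors, Traf2 was unlike Rela in experiment 1. Its normalized counts were 50.8, 65.8, 66.4, 74.8 and 62.9 in water rats and 54.6, 51.0, 58.5, 78.0 and 69.7 in EtOH rats, with wide overlap. The log2 fold change was -0.041 ± 0.15, with a 95% interval of -0.37 to 0.29 (edgeR FDR = 0.995). Traf6 had 28.7 to 51.8 normalized counts in the water group and 35.1 to 54.02 in the EtOH group, again overlapping (0.16 ± 0.20, edgeR FDR = 0.924).

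The receptor and its first adaptor had fold changes below 0, at low counts. Myd88 had 31.3, 29.8, 33.6, 32.8 and 29.6 normalized counts in water rats and 18.2, 24.0, 34.6, 23.6 and 22.1 in EtOH rats. In 4 of 5 EtOH rats it lay below all water rats, and EtOH replicate 3 lay above all of them. The log2 fold change of -0.34 ± 0.21 did not pass edgeR's test (FDR = 0.868). The exact permutation test of Myd88, 1 of the 9 given with Rela, had an unadjusted P of 0.0476. Without EtOH replicate 3 the fold change was -0.51 and the unadjusted edgeR P-value was under 0.05, with an FDR of 0.927. The RefSeq model of Myd88 overlaps that of Acaa1a on the opposite strand by 105 bases, and experiment 1 had libraries without strand information. Tlr4, with 5 to 29 reads per rat, had 22.1, 16.4, 9.5, 6.6 and 21.5 normalized counts in water rats and 11.7, 7.0, 10.6, 11.3 and 19.9 in EtOH rats, and no EtOH rat fell outside the range of the water group (-0.35 ± 0.37, edgeR FDR = 0.891). All 8 microglial markers were detected in every group. They summed to 353 to 411 CPM in water rats and 346 to 385 CPM in EtOH rats, ranges that overlap, and their part in the Myd88 and Tlr4 values was not tested.

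In experiment 2, Rela and Traf2 were at 0.66 and 0.65 times the level after water gavage, and Ikbkb and Nfkb2 also had fold changes below 0. Tlr4, Myd88, Traf6 and Nfkbia were above 0 and Nfkb1 was close to 0. In all, 5 members were below 0 and 4 above 0, against 49.9% below 0 among all tested genes, and all 9 had overlapping groups. These values come from the contrast that chose Rela and Traf2, so no test is given and nothing is read from them against the background, in which 1.33% of genes had a P-value under 0.05 and 0.0116% had groups that did not overlap.

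Rela had 130.6, 241.5, 210.4, 215.4, 151.2 and 210.8 normalized counts after water gavage and 72.6, 96.2, 128.5, 154.3, 167.9 and 141.7 after EtOH gavage. In 3 EtOH gavage rats it was below all controls, and 4 controls were above all EtOH gavage rats. The means were 193 ± 42.7 and 127 ± 36.2 (SD, n = 6 each), a log2 fold change of -0.61 ± 0.22. The direction was the opposite of that in experiment 1, in which other rats, libraries and EtOH exposures were compared, and the difference between the experiments was not tested.

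Traf2 had 52.6, 108.8, 129.7, 90.9, 70.8 and 75.6 normalized counts after water gavage and 47.3, 41.6, 57.0, 75.5, 59.4 and 62.1 after EtOH gavage. All EtOH gavage rats lay below the control median, but water gavage replicate 1 was as low as the EtOH group. The means were 88.1 ± 27.8 and 57.1 ± 11.9, a log2 fold change of -0.62 ± 0.24.

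Ikbkb had 215.6, 316.4, 365.6, 264.5, 264.3 and 297.5 normalized counts after water gavage and 158.4, 137.8, 280.2, 298.8, 221.6 and 266.0 after EtOH gavage. EtOH gavage replicates 1 and 2 were below all controls, and the other 4 lay within the range of the control group (log2 fold change -0.34 ± 0.21). Nfkbia ranged from 96.9 to 143.7 after water gavage, with a median of 114.0, and from 67.9 to 226.1 after EtOH gavage, with a median of 100.04. Its EtOH group was split, since 3 rats lay below all controls and replicates 2 and 3 lay above all of them, so the coefficient of variation was 50.8% against 13.7% and the fold change of 0.13 ± 0.29 describes neither set.

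The remaining members are given more briefly. Nfkb1 had a median of 217.6 normalized counts after water gavage (178.2 to 269.6) and 217.9 after EtOH gavage (160.2 to 245.2), with a log2 fold change of -0.028 ± 0.15. Nfkb2 had 1 to 36 reads per rat and medians of 14.6 (1.01 to 36.8) and 9.96 (2.20 to 23.2), and its fold change of -0.60 had an SE of 0.61. The gavage groups overlapped over most of their ranges for both precursors.

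Traf6 had a median of 104.8 normalized counts after water gavage (76.9 to 126.9) and 112.1 after EtOH gavage (72.2 to 153.2), a log2 fold change of 0.093 ± 0.21. Myd88 had medians of 54.5 (39.5 to 61.3) and 63.5 (39.6 to 71.4), a fold change of 0.19 ± 0.22. Tlr4 had medians of 22.3 (11.9 to 32.4) and 24.1 (21.3 to 47.3), and EtOH gavage replicates 1 and 5 were the highest of the 12 rats (0.50 ± 0.34). The adaptor and receptor levels overlapped widely between the gavage groups.

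**Figure D2:**
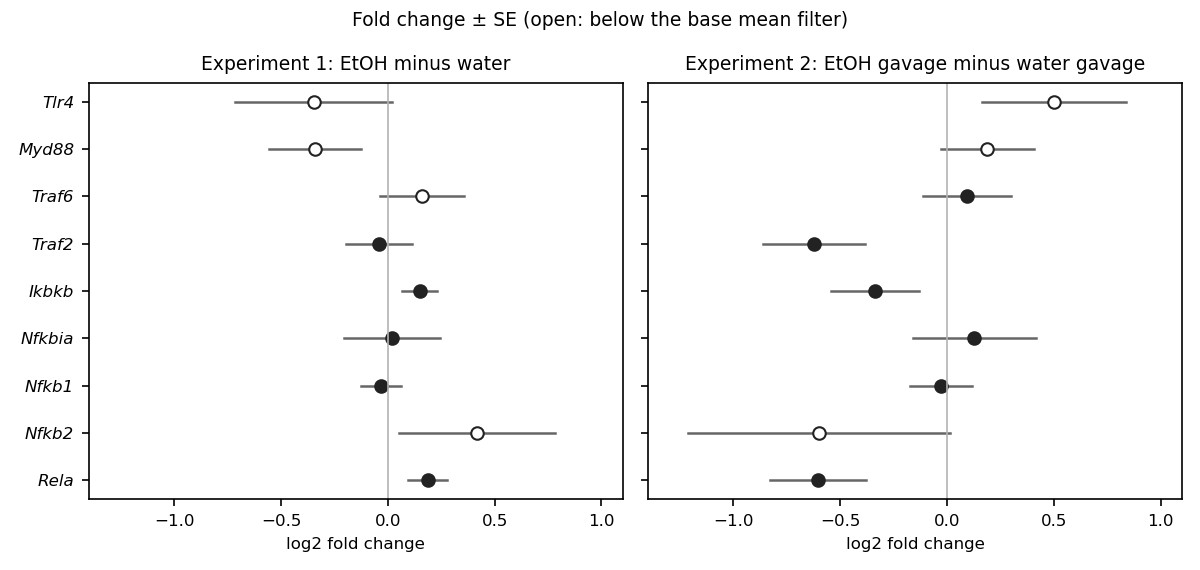
Log2 fold change (x axis) of each member, with lines of 1 SE to either side, EtOH minus water in experiment 1 (left) and EtOH gavage minus water gavage in experiment 2 (right). Filled points passed the filter on mean count and open points did not. Rela is above 0 on the left (0.19) and, as the gene picked from the contrast on the right, below 0 there (-0.61).

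In experiment 2 the share of reads outside genes moved with most tested genes, several members among them, and Rela followed it most closely of the members. After the group means were removed, log2 CPM of Rela had Pearson's r = -0.967 with this share over the 12 rats (permutation P = 3e-05, adjusted 0.00054 over 18 such correlations) and Spearman's rho = -0.923 (permutation P = 0.00019, adjusted 0.00342). Without EtOH gavage replicates 1 and 2, the farthest from the median share, r was -0.941 (permutation P = 0.00068, adjusted 0.0122). Over all tested genes the median absolute r was 0.783, and 54.9% of genes exceeded 0.75 in either direction, so a high correlation was common in these libraries. For comparison, 105 of 8655 genes had an r as low as that of Rela.

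Traf2 had r = -0.861 with the same share (permutation P = 0.00053, adjusted 0.00477) and rho = -0.874 (permutation P = 0.00092, adjusted 0.00828), and -0.889 without those 2 rats (permutation P = 0.00835, adjusted 0.0501). Ikbkb had r = -0.837 (permutation P = 0.00268, adjusted 0.0161) and rho = -0.762 (permutation P = 0.00984, adjusted 0.0443), but -0.676 without the 2 rats (permutation P = 0.0661, adjusted 0.170). Both missed the adjusted threshold over the 10 remaining rats. Traf6 ran the other way. Its r was 0.780 (permutation P = 0.00533, adjusted 0.0192), its rho 0.804 (permutation P = 0.00428, adjusted 0.0257), and r without the 2 rats 0.798 (permutation P = 0.00319, adjusted 0.0287). Nfkb2, at its low counts, had r = -0.759 (permutation P = 0.00405, adjusted 0.0182) with rho = -0.622 (permutation P = 0.0413, adjusted 0.149), and r = -0.752 without the 2 rats (permutation P = 0.0474, adjusted 0.158). Of the 8655 tested genes, 1731 had an r as low as that of Traf2, 1949 as low as Ikbkb and 2412 as low as Nfkb2. An r as high as that of Traf6 was found for 2074, and its value was below the median absolute r of 0.783. Correlations of this size were thus ordinary in these libraries and not particular to these members. Tlr4, Myd88, Nfkbia and Nfkb1 had r between -0.414 and 0.445, with adjusted permutation P-values of 0.42 or more. In experiment 1, where the share hardly varied, no member passed, and the lowest adjusted permutation P was 0.138, for Traf6.

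**Figure D3:**
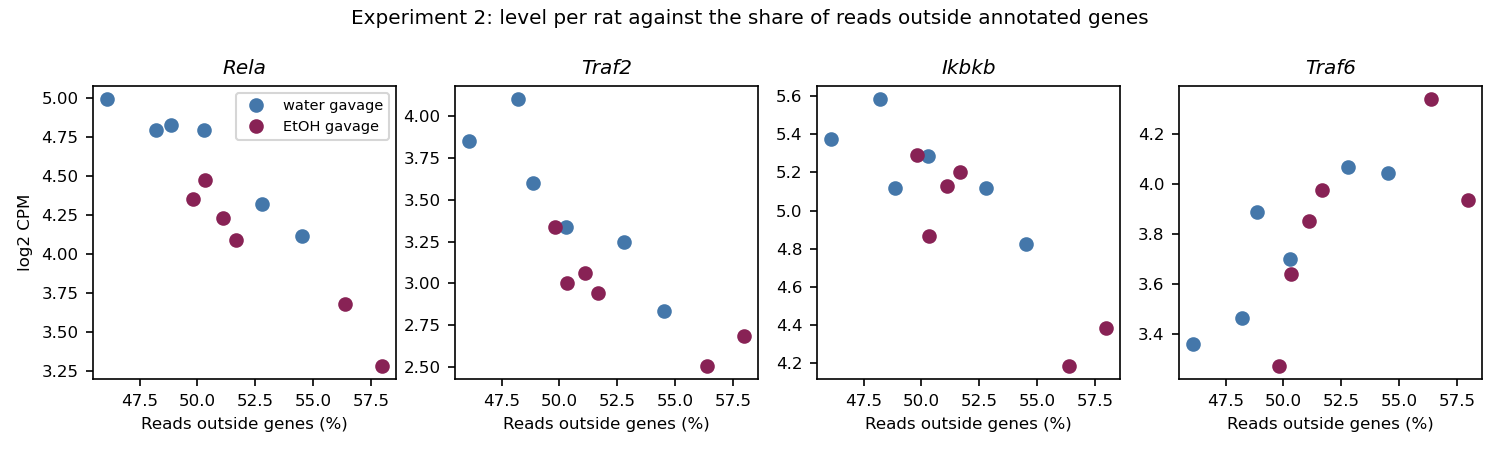
Log2 CPM (y axis, each panel with its own scale, not from 0) of Rela, Traf2, Ikbkb and Traf6 against the percentage of reads outside annotated genes (x axis) in the 12 rats of experiment 2. Rela, Traf2 and Ikbkb are lower and Traf6 is higher in rats with a larger share, in both gavage groups (r = -0.967, -0.861, -0.837 and 0.780 after removal of group means).

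The mean share was 50.1% ± 3.09 after water gavage and 52.9% ± 3.42 after EtOH gavage (SD, n = 6 each). With the share as a covariate in edgeR, the log2 fold change of Rela was -0.30 ± 0.12, that of Traf2 -0.31 ± 0.18 and that of Ikbkb -0.10 ± 0.14. Without the 3 libraries with over 54% of reads outside genes (EtOH gavage replicates 1 and 2 and water gavage replicate 1, a choice made after seeing the data), Rela was at -0.48 ± 0.16, Traf2 at -0.58 ± 0.22 and Ikbkb at -0.18 ± 0.15. Rela, Traf2 and Ikbkb stayed below 0 under both settings, and all 3 were closest to 0 with the covariate. Rela and Traf2 were picked as lower in this same contrast, so their sign in refits of the same rats is a description only.

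Marker levels differed between the same libraries. The 8 microglial markers, none at 0 in all rats, summed to 193 to 445 CPM after water gavage and to 171 to 360 CPM after EtOH gavage, and EtOH gavage replicates 1 and 2 and water gavage replicate 1 had the lowest sums. The 4 markers of cortical excitatory neurons summed to 1.24 to 517 CPM after water gavage and 2.58 to 393 CPM after EtOH gavage. They were lowest in water gavage replicate 5, followed by EtOH gavage replicate 1, water gavage replicate 1 and EtOH gavage replicate 2. The 4 endothelial markers all had fold changes below 0 and summed to 154 to 280 CPM after water gavage and 160 to 198 CPM after EtOH gavage. The part of these markers in the Rela and Traf2 values was not tested.

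Rela and Traf2 were also correlated within groups over all rats of each experiment. With group means removed, r between them was 0.864 over the 10 rats of experiment 1 (permutation P = 0.0113, adjusted 0.0113 over 2 correlations) with rho = 0.939 (permutation P = 0.00273, adjusted 0.00546), but 0.742 without the 2 rats farthest from the median Rela level (permutation P = 0.118). In experiment 2, r was 0.759 over 12 rats (permutation P = 0.00345, adjusted 0.0069) with rho = 0.720 (permutation P = 0.0108, adjusted 0.0108), and 0.777 without the 2 farthest rats (permutation P = 0.0275, adjusted 0.055). The rats left out in experiment 1 were EtOH replicates 4 and 5, which had the highest Rela, and both relations missed the adjusted threshold without the 2 farthest rats. Within the water and EtOH groups of experiment 1, Rela varied by 5.27 and 6.34%, below its counting error of 8.61%. Traf2 varied by 13.5 and 18.0%, against a counting error of 12.6%. The r of experiment 1 thus rests on differences near the size of counting error, and shared variation of the 2 transcripts is not shown by it. In experiment 2 both genes also followed the share of reads outside genes, and its part in their relation was not tested. There 54.9% of tested genes had an absolute r above 0.75 with that share. A low P against no correlation at all therefore says little about this pair. How many other genes vary this closely with Rela within groups was not counted, so nothing particular to this pair is shown. With group means kept, 453 of 8654 genes had r above 0.9 with Rela in experiment 2, and 46 had it with Traf2.

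The rest of the pathway was described from 80 further genes in 8 lists by function, of which 72 were in the files and 28 were tested in each experiment. In experiment 1, 14 of the 28 had fold changes above 0 and 14 below, with a median of -0.0017 against -0.0012 for all tested genes, and 1 in each direction had a P-value under 0.05, as did 2.58% (lower) and 3% (higher) of all tested genes. These were the kinase Tbk1 and the kinase partner Tab1. Tbk1, which acts on interferon regulatory factors downstream of TLRs, had means of 298 ± 26.0 and 258 ± 24.6 in the water and EtOH groups, with a fold change of -0.20 ± 0.085 (edgeR FDR = 0.866). Tab1, which activates the kinase TAK1 upstream of IKK, had means of 195 ± 17.5 and 223 ± 13.2, a fold change of 0.20 ± 0.084 (edgeR FDR = 0.866). In experiment 2, 18 were above 0 and 10 below, with a median of 0.070 against 0.00088 for all tested genes, of which 49.9% were below 0, and 0 of 28 had a P-value under 0.05 in edgeR's test, where 1.33% of all tested genes did.

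**Figure D4:**
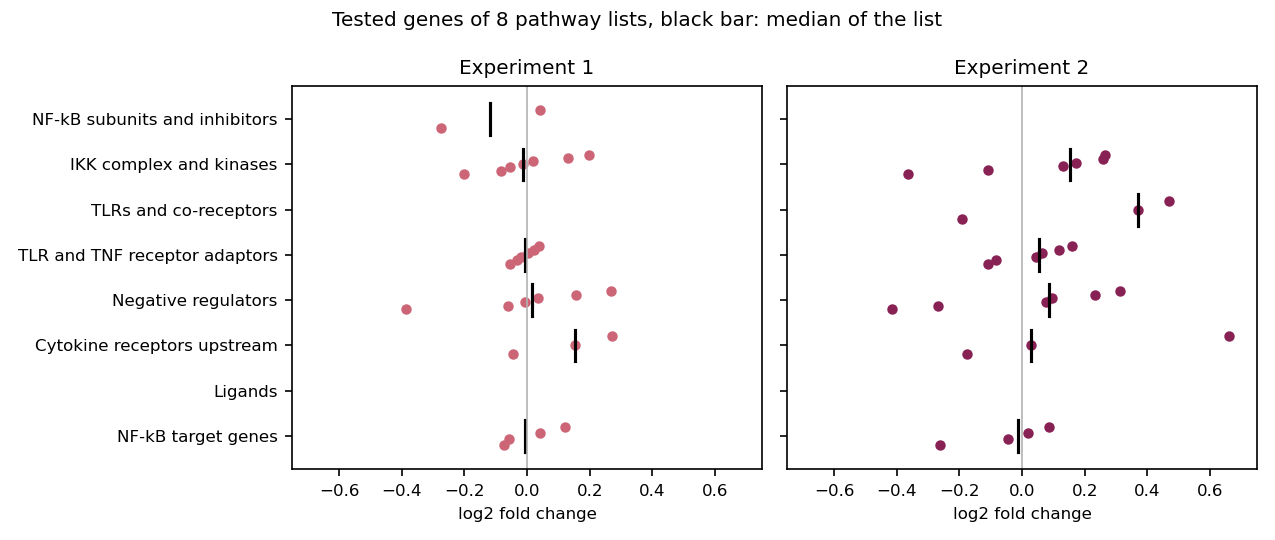
Log2 fold change (x axis) of each tested gene of the 8 pathway lists, 1 point per gene, with the list median as a black bar; members are not included. Points lie on both sides of 0 in both experiments, with a wider spread in experiment 2, and lists without points had no tested gene.

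Of the IKK complex and its kinases, 7 of 11 genes in the files were tested in experiment 1 and 6 in experiment 2. Chuk, the IKK-alpha subunit, had log2 fold changes of -0.083 ± 0.075 and 0.26 ± 0.17 in experiments 1 and 2, Tbk1 had 0.17 ± 0.13 in experiment 2, and Map3k14, the kinase of the non-canonical route, had 0.13 ± 0.14 in experiment 1. Tab1 had -0.36 ± 0.29 in experiment 2. Among further inhibitors, Nfkbib, encoding IkB-beta, had a fold change of -0.28 ± 0.18 and the IkB-like gene Nfkbil1 0.041 ± 0.18 in experiment 1. Neither was tested in experiment 2.

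Of the 12 other TLRs and co-receptors, none was tested in experiment 1 and 3 were in experiment 2. There Tlr2, a receptor for bacterial lipoproteins, had a log2 fold change of -0.19 ± 0.29, while Tlr3 and Tlr7, receptors for double- and single-stranded RNA, had 0.37 ± 0.35 and 0.47 ± 0.35. Among adaptors, the receptor-associated kinase Irak1 had 0.0029 ± 0.066 and -0.11 ± 0.14 in experiments 1 and 2, and its relative Irak2 had -0.053 ± 0.15 and 0.12 ± 0.20. Traf3 had 0.023 ± 0.098 in experiment 1, and Irak3, which restrains TLR signalling, had 0.043 ± 0.24 in experiment 2. The adaptors had the narrowest range of the 6 lists with tested genes in experiment 1, where their fold changes ran from -0.053 to 0.039.

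Of the negative regulators, the deubiquitinase Cyld had log2 fold changes of 0.27 ± 0.14 and 0.097 ± 0.24 in experiments 1 and 2, and the ubiquitin-binding proteins encoded by Tnip1 and Tnip2 had 0.16 ± 0.095 and -0.39 ± 0.19 in experiment 1. In experiment 2 the order of the last 2 was turned round, with -0.42 ± 0.45 for Tnip1 and 0.31 ± 0.20 for Tnip2. Among cytokine receptors, Tnfrsf1a, the main TNF receptor, had -0.046 ± 0.15 and -0.18 ± 0.18, and Il1rap, the shared subunit of IL-1 receptors, had 0.27 ± 0.15 and 0.029 ± 0.15. Ltbr, the lymphotoxin receptor, had 0.15 ± 0.20 in experiment 1, and Il1r1, the IL-1 receptor, had the highest fold change of all lists in experiment 2, at 0.66 ± 0.33, with means of 53.2 ± 27.3 and 84.1 ± 30.8. None of these passed edgeR's test.

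Genes that NF-kB is known to induce gave no shared direction. The adhesion molecule Vcam1 had log2 fold changes of 0.12 ± 0.082 and 0.020 ± 0.16 in experiments 1 and 2, the mitochondrial superoxide dismutase Sod2 had 0.043 ± 0.057 and 0.086 ± 0.12, and the survival gene Bcl2l1 had -0.056 ± 0.11 and -0.26 ± 0.22. The median of the 4 tested targets was -0.0067 in experiment 1 and -0.013 in experiment 2. No ligand of the pathway passed the filter in either experiment. Hmgb1, picked after its values were seen, had a mean count (after division by size factors) of 0.763 in experiment 1 and 58.2 in experiment 2. Multi-mapped reads were left uncounted, and their part in this difference was not tested. Tnf, named here after its values were seen, had 0 reads in all 22 libraries, which allows up to 0.572 to 1.01 CPM per rat in experiment 1 and 0.342 to 0.447 CPM in experiment 2 (3 counts, counting error only).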

How the data were processed

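The authors sequenced polyA+ RNA from libraries that did not keep the strand (experiment 1) or did (experiment 2) and deposited raw htseq-count read counts per gene and rat, unnormalized. The submitters' processing notes name TopHat2 2.0.13, HTSeq 0.5.3p3 and 0.6.0, and the genome build Rnor_6.0. The counting options and annotation release were not given in the sources used here. Multi-mapped reads were left uncounted.

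Each experiment was fitted on its own by glmQLFit and glmQLFTest of edgeR 4.0.16, run in R 4.3.3, after TMM scaling, over the 8655 genes with a mean count (after division by size factors) above the median of all listed genes, which was 43.6 in experiment 1 and 66.4 in experiment 2. This follows the 50% filter of the study. Adjustment was by Benjamini-Hochberg, and P-values measure the spread between separate rats. SE is the absolute fold change over the square root of F. Log2 CPM used a prior count of 2. Correlations used 100000 permutations, and single-gene tests were exact and two-sided. Promoters, neighbours and motif positions came from RefSeq (GRCr8), a build other than that of the files. The fits were tested on simulated data in which genes varied independently, so variation shared by many genes, as in experiment 2, was not covered.

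Alternatives were DESeq2 1.42.0, edgeR with DESeq2 scaling, all genes with a read, genes with at least 10 counts in each rat, the newer mode of glmQLFit, the replicate number as a block, the share of reads outside genes as a covariate, all 4 groups in one fit, and each rat left out in turn. Members and lists were chosen with earlier results of these data known. Genes named were all members, the first 3 tested of each list in a set order, any listed gene with a P-value under 0.05, and the 5 tested genes most like Rela and Traf2 in each experiment.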

Additional observations from a re-analysis of the deposited data

Results flagged for a closer look

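In the water group of experiment 1, replicate 1 had a normalized Rela count of 114.6, while the other 4 rats lay between 128.0 and 131.2, so the gap made up 0.806 of the range of the group (critical value of Dixon's test for 5 samples exceeded). In all, 44 groups of values were looked at, of which 2.2 would pass by chance, and this was the only one that did. Without this rat the log2 fold change of Rela was 0.16.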

How the results depend on the processing

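No gene reached an FDR under 0.05 in any fit, edgeR or DESeq2. Of the member fold changes under the alternatives, 148 of 156 in experiment 1 and 170 of 184 in experiment 2 kept their sign. Rela and Traf2 kept theirs in experiment 2 (-0.71 to -0.49 and -0.73 to -0.48 with 1 rat left out), and Rela in experiment 1 (0.16 to 0.22). In experiment 2 these 2 genes had been picked for that sign in the same rats, so its being kept is no separate support. Of the 5 tested members of experiment 1, 0 to 1 had a P-value under 0.05 with 1 rat left out (Rela, without EtOH replicate 3), and so did Myd88, below the filter, without the same rat. The cause of the turned signs was not tested. In experiment 2, Nfkb1 was 0.0041 in DESeq2, 0.0046 without a filter and 0.015 with the share covariate, which also put Nfkbia at -0.057, Traf6 at -0.12 and Nfkb2 at 0.24. Traf6 was -0.0098 without the 3 libraries over 54%. With 1 rat left out, Nfkb1 ran from -0.077 to 0.0036 in experiment 1 and -0.082 to 0.044 in experiment 2, Nfkbia from -0.11 to 0.19 and -0.12 to 0.26, Traf2 from -0.14 to 0.023 in experiment 1, and Traf6 from 0.070 to 0.30 and -0.022 to 0.19. Tlr4 and Nfkb2 kept their sign but ran from -0.59 to -0.16 and 0.24 to 0.65 in experiment 1 and from 0.31 to 0.65 and -0.97 to -0.24 in experiment 2. The correlations in experiment 2 that missed the threshold without the 2 farthest rats were those of Traf2 (-0.889), Ikbkb (-0.676) and Nfkb2 (-0.752; rho -0.622) with the share of reads outside genes and of Rela with Traf2 (0.777; 0.742 in experiment 1).

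Genes with a P-value under 0.05 numbered 483 of 8655 tested in experiment 1. There were 820 of 14024 without a filter, 80 of 8176 with all 4 groups in one fit and 380 to 743 of 8655 with 1 rat left out. In experiment 2 there were 115 of 8655, against 315 of 14110 in DESeq2 and 286 of 14121 without a filter. The replicate block gave 414 of 8655, all 4 groups gave 587 of 8176, and leaving 1 rat out gave 28 to 776 of 8655. Since the number of genes tested differs, the counts are not compared directly. The labels do not say what the replicate numbers stand for, and a check did not settle whether they pair the rats. Same-numbered rats deviated together (r over 0.1) in 1 of 5 pairs in experiment 1 and 4 of 6 in experiment 2, and 1 and 0 rats correlated best with their own number. In experiment 2 the mean r was 0.149 for same-numbered rats and 0.0074 for others, with same-numbered pairs from -0.759 to 0.835. With the replicate block, Rela was 0.19 in experiment 1 (edgeR FDR = 0.917) and -0.63 in experiment 2, Traf2 was -0.59, and Nfkbia was -0.0056 in experiment 2. Depth limits Tlr4 and Nfkb2 most, with counting errors of 27.0 and 26.9% in experiment 1.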

Other observations

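Genes whose log2 CPM followed Rela most closely differed between the experiments. Over the 12 rats of experiment 2, the highest Pearson's r with Rela belonged to Pagr1 (0.955, against 0.469 in experiment 1), Egln2 (0.954, -0.500), Erf (0.953, -0.604), Cox5b (0.950, 0.265) and Hsd17b8 (0.949, -0.232), and 453 of 8654 genes exceeded 0.9. Over the 10 rats of experiment 1 only 4 did. The 5 highest there were Slc9a3r2 (0.932, against 0.875 in experiment 2), Mrpl52 (0.915, 0.755), Asb1 (0.903, 0.834), Xpo7 (0.9005, -0.849) and Sdcbp (0.893, -0.787). All rats of an experiment share the library type, and these values are a description.

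For Traf2, the 5 most alike in experiment 2 were Ube2m (0.958, against 0.232 in experiment 1), Nmnat1 (0.957, 0.105), Yif1a (0.950, -0.112), Begain (0.941, 0.266) and Slc25a23 (0.928, 0.363), with 46 genes above 0.9. In experiment 1 they were RT1-S3 (0.905, against -0.320 in experiment 2), Xpo6 (0.869, 0.0201), Bmp1 (0.868, 0.686), Sec16a (0.860, 0.590) and LOC683897 (0.860, 0.497).

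Mean CPM in experiment 2 was 0.595 times that in experiment 1 for Rela, 0.577 for Traf2, 0.564 for Nfkbia and 0.519 for Nfkb2. It was 0.697 for Nfkb1, 0.729 for Ikbkb, 0.969 for Tlr4, 1.0003 for Myd88 and 1.30 for Traf6. The library type, the sequencer, the read length, the EtOH exposure and the experiment differed together and cannot be told apart.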
